A study of Mus musculus with 22 samples.

Results

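A set of 10 genes of ammonia disposal was followed through YAP1-driven mouse hepatoblastoma and its regression: Cps1, Otc, Ass1, Asl, Arg1, Nags, Slc25a15, Slc25a13, Glud1 and Gls2. They were chosen by name as the urea cycle and its mitochondrial supply, and all 10 were found among the 36555 genes of the expression table and passed the filter on low values. In the study, YAP1 is switched on in mouse liver by doxycycline through an rtTA3 transgene under the CAG promoter, tumors form, and doxycycline is then withdrawn. RNA was measured in bulk tissue of 4 groups. The YAP1on tumors (n = 4) were taken on doxycycline and the day 6 tumors (n = 4) 6 days after its withdrawal, both from mice with the transgene Tg(CAG-rtTA3)4288Slowe/J. All 4 tumors of a group carry the code of 1 mouse in the labels. An effect of the mouse therefore cannot be told apart from that of doxycycline, and the spread among tumors is spread within a mouse. The hbHep group holds liver of 3 mice at days 121, 114 and 117, carrying the hepatocyte-like cells that, by the series' title, arise from tumor cells, with 2 technical libraries a mouse. FAH liver (n = 3) comes from mice on NTBC, the drug that keeps Fah-deficient mice alive. The hbHep mice and the FAH liver mice share the FAH Delta Exon 5 genotype, a deletion in the last enzyme of tyrosine breakdown, and an hbHep library also holds whatever host liver cells lay in the piece. Ages and sexes of the mice are not stated in the labels. Open chromatin was mapped with Omni-ATAC, a method that lets a transposase tag accessible DNA in nuclei, in 1 library each of YAP1on tissue, days 14, 33 and 64 without YAP1, and liver labelled WT.

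The urea cycle turns ammonia, which is toxic, into urea, and runs in hepatocytes. In mitochondria CPS1 joins ammonia and bicarbonate into carbamoyl phosphate, and OTC passes it to ornithine to make citrulline; in the cytosol ASS1, ASL and ARG1 turn citrulline and aspartate into urea and return ornithine. NAGS makes the activator that CPS1 needs, SLC25A15 carries ornithine and citrulline across the inner membrane, SLC25A13 supplies aspartate to the cytosol, and GLUD1 and GLS2 release ammonia from glutamate and glutamine. In liver the cycle enzymes, from CPS1 to ARG1, are highest around the portal vein. Glutamine synthetase (Glul), which captures the ammonia that escapes, lies around the central vein.

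The start regions of 4 genes are shown because they stand for the patterns described below: Otc and Ass1 differed widely among groups, Glud1 differed little, and Nags stood at 79.3% of its FAH liver mean in hbHep. Each is the 250 bases before the start site from RefSeq (GRCm38.p6), on the coding strand, with capitals for bases under an interval of the liver ATAC list. They lie at chrX:10252055-10252304 (Otc, plus strand), chr2:31470020-31470269 (Ass1, plus), chr11:102145263-102145512 (Nags, plus) and chr14:34310477-34310726 (Glud1, plus).
Otc: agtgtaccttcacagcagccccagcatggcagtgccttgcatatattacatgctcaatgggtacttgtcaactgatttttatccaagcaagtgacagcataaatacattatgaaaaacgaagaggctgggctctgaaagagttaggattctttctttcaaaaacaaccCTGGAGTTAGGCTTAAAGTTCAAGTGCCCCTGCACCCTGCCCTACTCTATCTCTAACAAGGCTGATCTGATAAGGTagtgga
Ass1: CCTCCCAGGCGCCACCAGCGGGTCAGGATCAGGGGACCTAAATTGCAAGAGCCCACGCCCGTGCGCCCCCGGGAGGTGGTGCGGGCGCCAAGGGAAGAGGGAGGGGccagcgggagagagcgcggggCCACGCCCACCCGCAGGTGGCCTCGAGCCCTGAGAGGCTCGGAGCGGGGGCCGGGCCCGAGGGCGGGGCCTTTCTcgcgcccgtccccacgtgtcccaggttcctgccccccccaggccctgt
Nags: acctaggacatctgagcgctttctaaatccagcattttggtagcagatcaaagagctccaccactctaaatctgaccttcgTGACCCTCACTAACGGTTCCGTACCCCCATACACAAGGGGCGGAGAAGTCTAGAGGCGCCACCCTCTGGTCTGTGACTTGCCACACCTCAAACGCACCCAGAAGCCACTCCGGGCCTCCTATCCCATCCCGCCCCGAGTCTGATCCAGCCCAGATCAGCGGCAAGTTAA
Glud1: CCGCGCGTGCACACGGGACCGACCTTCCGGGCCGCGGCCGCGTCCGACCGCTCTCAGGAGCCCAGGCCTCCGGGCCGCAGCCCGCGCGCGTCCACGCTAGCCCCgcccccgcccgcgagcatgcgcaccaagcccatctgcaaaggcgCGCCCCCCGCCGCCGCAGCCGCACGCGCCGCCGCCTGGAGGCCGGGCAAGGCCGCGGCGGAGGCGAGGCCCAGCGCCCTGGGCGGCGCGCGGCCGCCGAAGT
The Otc region had a GC content of 43.6% and 76 of its 250 bases under liver intervals, against 75.6% and 181 bases for Ass1, 55.6% and 169 bases for Nags, and 82% and 206 bases for Glud1. RefSeq entries were matched for 6 of the 10 genes (7 start sites, since Slc25a15 has 2). Both strands of the 300 bases from 250 before to 50 after each start were searched, counting overlapping matches. The GC box letters GGGCGG stood in 5 of the 7 windows, against 46.2% of 21262 promoters of the same length, and at -63 from the start in Ass1. The letters TATAAA, held by 12.6% of all promoters, were in 0 of the 7, and so were TTGCNNAA (10.2%), GGAATG (13.6%) and TGACGTCA (2.23%). CAAAG stood in 3 of 7 (Otc, Nags and Glud1; 51.2% of all promoters), CCAAT in 1 (Slc25a13; 38.2%) and AGGTCA in 1 (Nags; 14.7%).

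Across the libraries, 17953 genes were tested with limma on log2(abundance + 1), where abundance is the authors' length-scaled signal after a rescaling between libraries, and a call is an adjusted p under 0.05 by Benjamini-Hochberg. Yap1 lay between 5263 and 10750 in YAP1on tumors and between 937.1 and 1356 in all samples of the other 3 groups. The summed abundance of 6 hepatocyte markers (Alb, Apob, Ttr, Apoa1, Fgb, Trf) ran from 372400 to 646900 in the YAP1on group, from 647200 to 800500 at day 6, from 663400 to 868200 in hbHep mice and from 1138000 to 1347000 in FAH livers. That of 6 bile duct markers was 28650 to 37680, 2561 to 7443, 1018 to 1424 and 648.6 to 725.2 in the same order. Summed markers of T, NK and B cells ran from 231.3 to 300.4, from 416.9 to 589.1, from 185.7 to 242.7 and from 80.78 to 104.8, again in that order, so the tumor groups did not overlap. Macrophage markers ran from 9837 to 16710, from 6808 to 11710, from 7061 to 19330 and from 3263 to 5843, with every hbHep mouse above every FAH liver. Neutrophil markers were 620.8 to 1921 and 684.3 to 1863 in the tumor groups, 156.7 to 294.6 in the hbHep mice, and 89.9 to 92.37 in FAH livers. Red blood cell precursor markers were 16990 to 40660, 21960 to 58480, 7869 to 17440 and 9273 to 16910. The endothelial sums lay between 3464 and 8291 and the stellate cell and fibroblast sums between 3374 and 12150 over all groups. No marker of the 8 cell types measured was at 0 in every sample of a group. Fewer hepatocytes and less RNA per hepatocyte cannot be told apart in bulk tissue, and the part of cell makeup in the results below was not tested.

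The 10 genes together held between 0.265 and 0.453% of all abundance in YAP1on tumors, between 0.686 and 1.09% at day 6, between 0.359 and 0.578% in hbHep, and between 1.19 and 1.4% in FAH liver. FAH liver had the highest mean of every one of the 10. YAP1on tumors had the lowest mean of all but Glud1, whose lowest mean was in hbHep. On this scale, which is per base of transcript, Cps1 was the most abundant in every group and held on average 61% of the genes' sum in YAP1on tumors, 69.7% in day 6 tumors, 48.9% in hbHep and 65% in FAH liver.

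**Figure D1:**
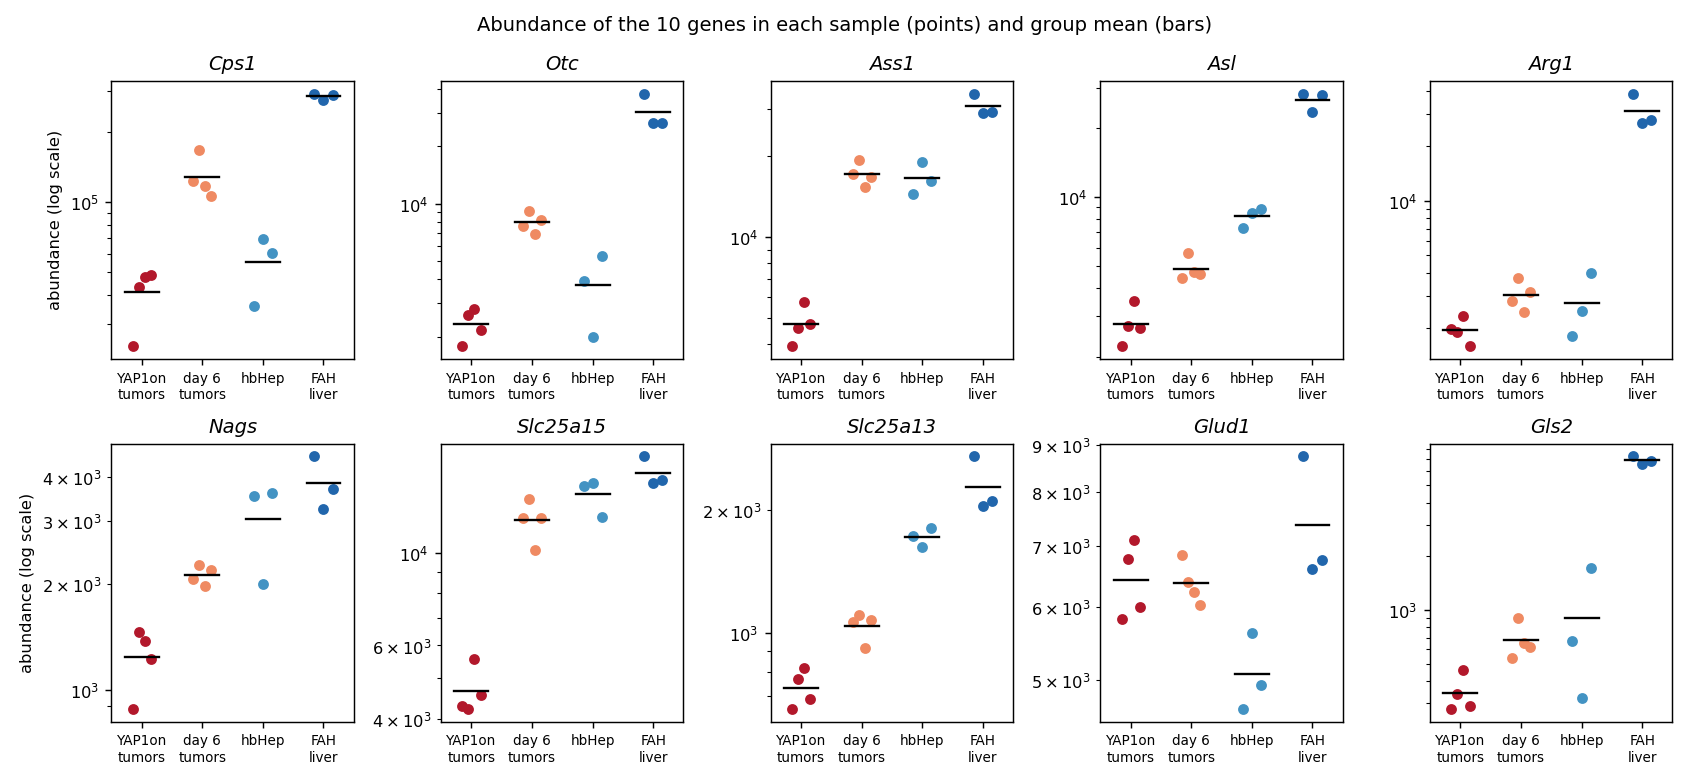
Abundance of each gene on a log axis, by group; points are samples (an hbHep point is the mean of 2 technical libraries) and bars are group means. FAH liver sits highest in every panel, and hbHep is close to it for Slc25a15 and far below it for Arg1 and Gls2. The tumor groups are apart for all but Glud1. The share of all genes tested whose tumor groups lie apart was not counted.

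At 6 days after doxycycline withdrawal, 8 of the 10 genes were higher than in YAP1on tumors and 0 were lower. Over all genes tested, 12.8% were higher and 10.8% lower. The median log2 difference was 0.9 for the 10 genes and 0.02 for all genes. The mitochondrial enzymes Cps1 and Otc and the cytosolic Ass1 rose most, and Arg1, which closes the cycle, rose least of the 5 cycle enzymes.

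Cps1, the entry enzyme, measured 23980, 43310, 47780 and 48650 in the YAP1on tumors and 123200, 167600, 117700 and 106000 in the day 6 tumors. The hbHep mice had 35900, 69620 and 60520, and the FAH livers 292800, 275800 and 288200. The tumor groups did not overlap, hbHep overlapped the YAP1on tumors and lay below every day 6 tumor, and FAH liver stood above all. Day 6 exceeded YAP1on by 1.68 in log2 (SE 0.3; limma adjusted p = 0.000676), a 3.21-fold difference.

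Otc, the citrulline-forming enzyme, measured 1779, 2603, 2795 and 2157 in YAP1on tumors and 7646, 9144, 6894 and 8184 in day 6 tumors. It was 3924, 1986 and 5300 in hbHep and 37800, 26600 and 26470 in FAH liver. Every day 6 tumor exceeded every YAP1on tumor, by 1.79 in log2 on average (SE 0.24; limma adjusted p = 6.66e-05), while 1 hbHep mouse lay within the YAP1on range.

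Ass1, which joins citrulline to aspartate, measured 3930, 4584, 5743 and 4778 in YAP1on tumors and 17260, 19400, 15320 and 16690 in day 6 tumors. It was 14530, 18970 and 16200 in hbHep and 34180, 29040 and 29220 in FAH liver. Day 6 tumors and hbHep overlapped, between both other groups. The rise at day 6 was 3.63-fold (log2 1.86, SE 0.15; limma adjusted p = 4.17e-07).

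Asl, the argininosuccinate lyase, showed a stepwise order of groups with no overlap between them. It measured 2217, 2727, 3516 and 2671 in YAP1on tumors, 4437, 5669, 4707 and 4597 in day 6 tumors, 7271, 8518 and 8871 in hbHep, and 28280, 23540 and 27870 in FAH liver. Its day 6 difference was 0.81 in log2 (SE 0.14; limma adjusted p = 0.000671).

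Arg1, the arginase that releases urea, measured 1962, 1901, 2332 and 1583 in YAP1on tumors and 2800, 3740, 2444 and 3132 in day 6 tumors. It was 1800, 2477 and 3986 in hbHep and 38680, 26820 and 27680 in FAH liver. The tumor groups lay side by side without overlap, hbHep spread over both, and FAH liver stood far above. The day 6 difference of 0.63 in log2 (SE 0.22) passed narrowly (limma adjusted p = 0.0437) and was lost under several alternatives, with adjusted p up to 0.135, among them leaving out YAP1on tumor 1, 2 or 4 or day 6 tumor 1, 2 or 4. An annotated lncRNA, Gm40616, overlaps Arg1, and whether the quantification used strand is not stated, so reads of the overlap may count for either.

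The carriers and the activator also rose at day 6. Slc25a15, the ornithine carrier, went from 4290, 4220, 5558 and 4571 in YAP1on tumors to 12140, 13490, 10190 and 12150 in day 6 tumors, with 14520, 14770 and 12190 in hbHep and 17070, 14750 and 14970 in FAH liver. Its rise was 2.58-fold (log2 1.37, SE 0.14; limma adjusted p = 3.24e-06), and the hbHep values reached into the FAH liver range. Nags, the source of the CPS1 activator, ranged from 882.5 to 1459 in YAP1on tumors and from 1970 to 2254 at day 6, with hbHep mice between 1996 and 3619 and FAH livers between 3254 and 4580 (day 6 difference 0.8 in log2, SE 0.19; limma adjusted p = 0.00627). An annotated lncRNA, Gm11586, overlaps Nags. Slc25a13, the aspartate carrier, ranged from 649.4 to 818.6, 915.7 to 1106, 1621 to 1810 and 2043 to 2705 in the same order of groups, again without overlap (day 6 difference 0.51, SE 0.11; limma adjusted p = 0.00419).

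The ammonia-releasing enzymes were the ones not called at day 6, Glud1 being level and Gls2 higher. Glud1, glutamate dehydrogenase, measured 5823, 6774, 7098 and 6003 in YAP1on tumors and 6839, 6394, 6230 and 6027 in day 6 tumors, with 4652, 5619 and 4945 in hbHep and 8746, 6602 and 6754 in FAH liver. The tumor groups overlapped, and their difference was -0.01 in log2 with a 95% interval from -0.27 to 0.25; under quantile normalization it was called lower, at -0.41 (limma adjusted p = 0.00767). Gls2, the liver glutaminase, measured 277.6, 337.3, 462.2 and 289.7 in YAP1on tumors and 540.2, 906.1, 648.4 and 618.2 in day 6 tumors, groups that did not overlap. Its difference of 0.99 (SE 0.35) did not pass (limma adjusted p = 0.0543), but did so without YAP1on tumor 3 (1.14; limma adjusted p = 0.0461) and in some other alternatives. Gls2 was 668, 319.3 and 1716 in hbHep and 7282, 6616 and 6899 in FAH liver; the protein-coding gene Spryd4 overlaps it.

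**Figure D2:**
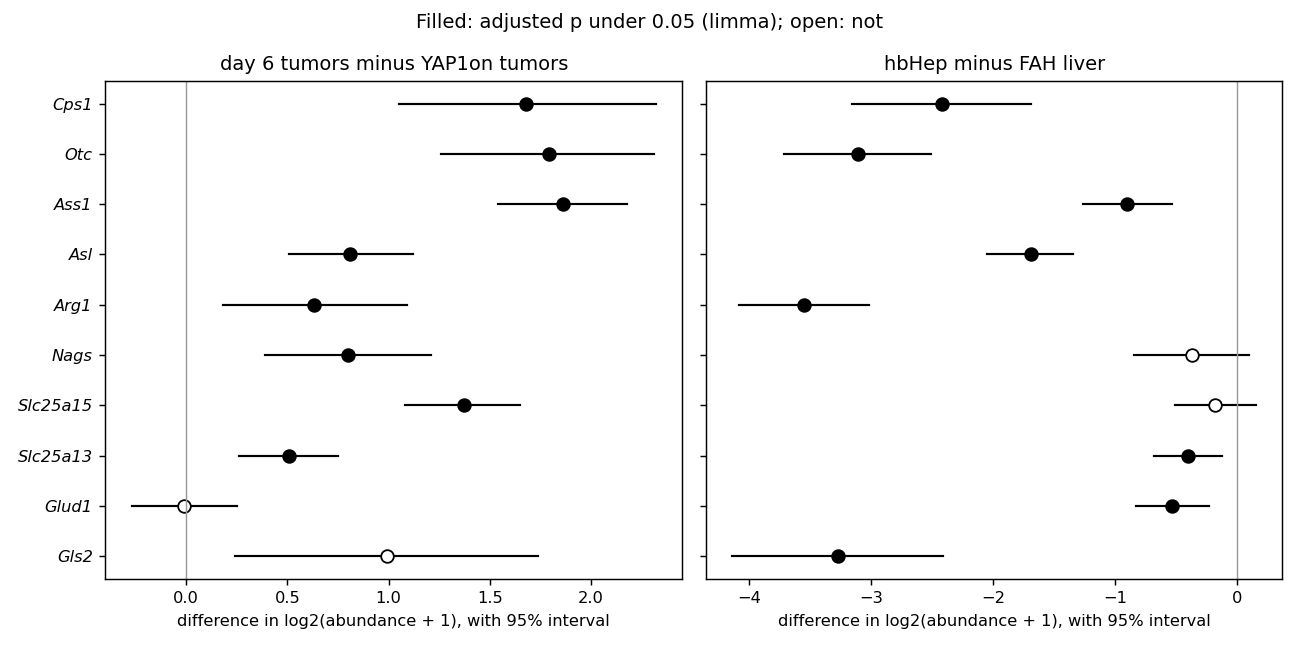
Difference in log2(abundance + 1) for each gene with its 95% interval from limma, for day 6 against YAP1on tumors (left) and hbHep against FAH liver (right); filled points have an adjusted p under 0.05. At day 6 only Glud1 sits at 0; against FAH liver, Arg1, Gls2, Otc and Cps1 are furthest down and Nags and Slc25a15 have intervals that cross 0.

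At days 114 to 121, hbHep had 6 of the 10 genes higher than YAP1on tumors (28.8% of all genes tested were higher) and 1, Glud1, lower (26.3% of all were lower). This comparison shares the YAP1on tumors with the one above. The 6 were Ass1, Asl, Nags, Slc25a15, Slc25a13 and Gls2, with log2 differences of 1.8, 1.58, 1.28, 1.57, 1.24 and 1.09. Cps1 (0.43), Otc (0.59) and Arg1 (0.44) did not pass, with limma adjusted p of 0.268, 0.0708 and 0.123, and under quantile normalization Cps1 turned to -0.09. Otc passed without hbHep mouse 2 (0.99; limma adjusted p = 0.00115), and Arg1 without hbHep mouse 1 (0.71; limma adjusted p = 0.0189). Glud1, at -0.34 (SE 0.13; limma adjusted p = 0.0398), lost its call in 9 alternatives, including leaving out YAP1on tumor 2 or 3 or hbHep mouse 1 or 3. The call of Gls2 was lost without YAP1on tumor 1 or 4 and without hbHep mouse 3.

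Set directly against day 6 tumors, hbHep had 2 genes higher and 2 lower, beside 24.1% higher and 21.7% lower among all genes. Asl rose by 0.76 (SE 0.16; limma adjusted p = 0.00108) and Slc25a13 by 0.73 (SE 0.12; limma adjusted p = 0.000234). Cps1 was lower by 2.38-fold (log2 -1.25, SE 0.32; limma adjusted p = 0.00549) and Otc by 2.29-fold (log2 -1.2, SE 0.26; limma adjusted p = 0.00184). These counts are near the shares over all genes. For Ass1 the difference was -0.05, with an interval from -0.4 to 0.29, and it turned to 0.05 on the values as deposited. For Slc25a15 it was 0.21 (interval -0.1 to 0.52), or -0.11 under quantile normalization. Without hbHep mouse 2, Nags was called higher (0.76; limma adjusted p = 0.00391) and Glud1 lower (-0.41; limma adjusted p = 0.0335), against 0.48 and -0.33 with all samples (limma adjusted p = 0.0708 and 0.0519).

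Compared with FAH liver, hbHep had 0 of the 10 genes higher and 8 lower, where 19.9% of all genes were higher and 17.1% lower. The median log2 difference was -1.3 for the 10 genes and -0.01 for all. The gap was uneven. As a percent of the FAH liver mean, hbHep reached 8.87% for Arg1, 12.3% for Otc, 13% for Gls2 and 19.4% for Cps1, but 30.9% for Asl, 53.8% for Ass1, 68.8% for Glud1, 75.4% for Slc25a13, 79.3% for Nags and 88.7% for Slc25a15.

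Arg1 showed the widest gap, 11.7-fold (log2 -3.55, SE 0.25; limma adjusted p = 6.65e-08), and the highest hbHep mouse, at 3986, lay far under the lowest FAH liver, at 26820. Gls2 was 9.67-fold lower (log2 -3.27, SE 0.41; limma adjusted p = 1.9e-05), Otc 8.64-fold (log2 -3.11, SE 0.28; limma adjusted p = 9.72e-07) and Cps1 5.36-fold (log2 -2.42, SE 0.35; limma adjusted p = 6.78e-05). These 4 lay in the lowest 1.2% of all genes tested by log2 difference. Nags (-0.37, interval -0.84 to 0.1) and Slc25a15 (-0.18, interval -0.51 to 0.16) did not pass, and under quantile normalization Slc25a15 was 0.33. The call of Slc25a13 (-0.4; limma adjusted p = 0.0282) was lost without hbHep mouse 1 or 2 or FAH liver 1. The quantile normalization called 5 genes lower in place of 8, losing Ass1, Slc25a13 and Glud1.

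The tumors were compared with FAH liver in the same way, with the same 3 livers. In day 6 tumors 0 genes were higher (31.6% of all genes) and 9 lower (31% of all), and in YAP1on tumors 0 were higher (34.4%) and 9 lower (33.5%). Glud1 was the gene not called in both, at -0.2 and -0.19; under quantile normalization it was instead called higher, at 0.49 and 0.9. Arg1 was 10.2-fold below FAH liver in day 6 tumors and 15.9-fold below in YAP1on tumors, and Gls2 10.4-fold and 20.6-fold. Asl, at 5.48-fold below in day 6 tumors, had the next widest gap there. Cps1, by contrast, was 2.25-fold below FAH liver in day 6 tumors and 7.24-fold below in YAP1on tumors. Slc25a15 in day 6 tumors, at -0.38 (limma adjusted p = 0.0328), was called higher under quantile normalization, at 0.43, and lost its call without day 6 tumor 1, 3 or 4 or FAH liver 1 or 3. Quantile normalization also ended the day 6 calls of Cps1, Ass1 and Nags.

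The genes were also expressed per 1000 units of the 6 hepatocyte markers' sum, which moves all 10 alike within a sample and narrows the deficits against FAH liver. Ass1 stood 2.95-fold below FAH liver in YAP1on tumors, 1.04-fold in day 6 tumors and 1.18-fold in hbHep. Cps1 was 3.31-fold, 1.31-fold and 3.25-fold below in the same order, and Otc 5.93-fold, 2.19-fold and 5.39-fold. Arg1 was 7.03-fold, 5.93-fold and 7.26-fold below, and Gls2 9.3-fold, 6.01-fold and 5.27-fold. On this scale 3 genes called lower above turned to the other side of FAH liver. In day 6 tumors Slc25a15 stood at 17 against 12.8 in FAH liver. In hbHep Slc25a13 stood at 2.19 against 1.86, and Glud1 at 6.56 against 6.02. Glud1 was above FAH liver in YAP1on tumors (11.7) and day 6 tumors (9.04) too, and in hbHep so were Slc25a15 (17.8) and Nags (3.79 against 3.14). These ratios are descriptions, without a test.

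The 2 technical libraries of each hbHep mouse did not give the same values for part of the pathway. Arg1 was 778.2 and 2822 in mouse 1, 1781 and 3173 in mouse 2, and 2305 and 5667 in mouse 3, first and second library in turn. Gls2 was 304.7 and 1031, 224.1 and 414.6, and 905 and 2527. The second library was higher in all 3 mice for both, and also for Cps1, Otc, Ass1 and Asl, which makes 6 of the 10 genes beside 17% of all genes tested. In log2 the second library exceeded the first by 1.86, 0.83 and 1.3 for Arg1 and by 1.76, 0.88 and 1.48 for Gls2, while the median of all genes was -0.02, 0.19 and 0. Both libraries of a mouse were divided by 1 factor, so a difference in their scale remains. In mouse 2, 68.4% of all genes were higher in the second library. There Cps1 (0.29) lay at percentile 62.2, Otc (0.4) at 74.8, Ass1 at 80.7 and Asl at 80.2, with Arg1 at 94.8 and Gls2 at 95.5. Nags, Slc25a13, Slc25a15 and Glud1 did not share one direction. The labels give no reason for the difference between libraries, and the hepatocyte marker sums were 576700 to 891800 in the first and 750000 to 858000 in the second libraries.

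The choice of library changed calls. With the first libraries alone, Arg1 in hbHep was -0.37 against YAP1on tumors (limma adjusted p = 0.293) and -1 against day 6 tumors (limma adjusted p = 0.0107). With the second libraries alone it was 0.93 (limma adjusted p = 0.00278) and 0.29. Gls2 against YAP1on tumors was 0.26 with the first libraries and 1.6 with the second. The deficit against FAH liver stood in both: -4.36 and -3.06 for Arg1, and -4.11 and -2.76 for Gls2.

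**Figure D3:**
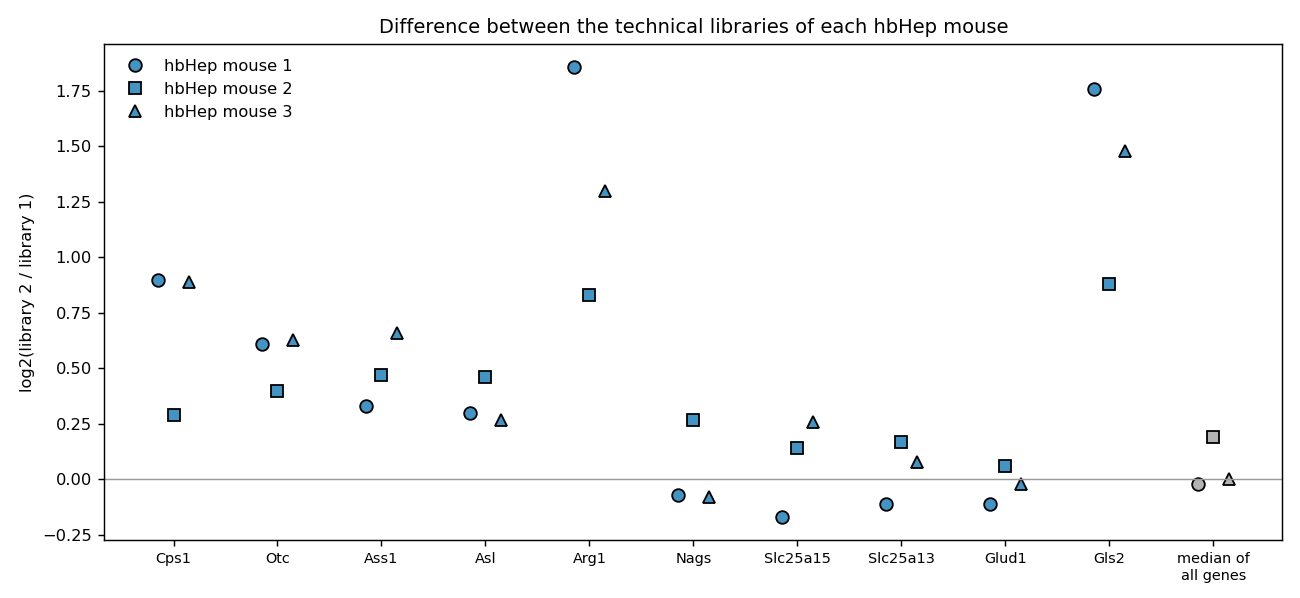
The log2 ratio of the second to the first technical library of each hbHep mouse (1 symbol per mouse) for the 10 genes, with the median over all genes tested at the right in grey. Arg1 and Gls2 lie between 0.83 and 1.86 in every mouse, while Nags, Slc25a15, Slc25a13 and Glud1 scatter around 0.

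The genes around the cycle were followed by lists chosen by function, whose counts stand beside 12.8% higher and 10.8% lower among all genes at day 6, and 19.9% and 17.1% in hbHep against FAH liver. Of 12 carbonate, aspartate and carrier partners, 7 were higher and 0 lower at day 6 (median log2 0.48), led by Car5a, the mitochondrial carbonic anhydrase that supplies bicarbonate to CPS1. Car5a went from 144.1 ± 16.8 (SD, n = 4) to 694.2 ± 96.9 (SD, n = 4), or 2.26 in log2, and Got1 and Mdh1, enzymes of the malate-aspartate shuttle, rose by 0.94 and 0.9. In hbHep, 2 of the 12 were above FAH liver, a share near that of all genes, and 6 below (median -0.32). The glutamate carrier Slc25a22 (1.04) and Mdh2 (0.63) were higher, and Car5a (-1.43), the mitochondrial deacetylase Sirt3 (-1.05) and Mdh1 (-0.57) lower.

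Of 14 enzymes of ornithine, arginine, proline and polyamines, 4 were higher and 5 lower at day 6 (median -0.29), where 12.8% and 10.8% of all genes were. Oat, the aminotransferase that takes ornithine away from the cycle, rose most, by 3.12 in log2. It measured 144400 ± 38900 (SD, n = 3) in hbHep, 6040 ± 1780 (SD, n = 4) in YAP1on tumors, 51160 ± 9390 (SD, n = 4) in day 6 tumors and 5286 ± 1370 (SD, n = 3) in FAH liver. The proline-breakdown enzymes Prodh (1.3) and Aldh4a1 (1.16) also rose at day 6, while Arg2, the mitochondrial arginase (-1.27), Gatm (-0.98) and Aldh18a1 (-0.86) fell. In hbHep 6 were above FAH liver and 4 below (median 0.17), where 19.9% and 17.1% of all genes were: Oat (4.77), Arg2 (2.5) and Aldh18a1 (2.47) higher, and Agmat (-0.77), Srm (-0.74) and Amd1 (-0.71) lower. Arg2 averaged 122.2 in hbHep and 17.54 in FAH liver, both low beside Arg1.

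Of 11 genes of glutamine, ammonium and basic amino acid handling, 6 rose and 0 fell at day 6 (median 0.86), beside 12.8% and 10.8% of all genes. The ammonium channel Rhbg rose by 2.2, glutamine synthetase Glul by 2.02 and the glutamate transporter Slc1a2 by 1.89. In hbHep 7 were above FAH liver, beside 19.9% of all genes, and 2 below (median 0.9), near the 17.1% of all genes. Glul was 63690 ± 21300 (SD, n = 3) in hbHep and 4899 ± 857 (SD, n = 3) in FAH liver (log2 3.65), Rhbg 11810 ± 3070 (SD, n = 3) and 499.4 ± 71.7 (SD, n = 3) (log2 4.54), and Slc1a2 differed by 3.89. The amino acid carriers Slc38a4 (-1.18) and Slc7a2 (-0.58) were lower. Thus Glul and Oat lay far above FAH liver in the same samples in which Arg1, Otc, Cps1 and Gls2 lay far below it. Glul, Oat and Rhbg did not share the difference between technical libraries: Glul, for example, was -0.1, 0.29 and -0.13 in log2.

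Of 10 genes of amino acid breakdown that frees nitrogen, 6 rose and 1 fell at day 6 (median 0.78), the latter near the 10.8% of all genes that fell, while 12.8% rose. The histidine-pathway enzymes Uroc1 (1.71) and Hal (1.56) and the alanine aminotransferase Gpt (1.39) rose, and Gpt2 fell (-0.62). In hbHep 0 were above FAH liver and 8 below (median -1.66), beside 19.9% and 17.1% of all genes, with Hal at -3.78, the serine dehydratase Sds at -3.58 and Uroc1 at -3.23. Hal measured 572.1 ± 421 (SD, n = 3) in hbHep and 6641 ± 250 (SD, n = 3) in FAH liver.

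Of 12 factors known to act on urea cycle genes, 5 were higher and 1 lower at day 6 (median 0.33), beside 12.8% and 10.8% of all genes. The glucagon receptor Gcgr rose by 1.68, and the transcription factors Foxa2 and Cebpa by 0.97 and 0.86, while Cebpd fell (-0.98). Against FAH liver, 1 was higher in hbHep (Ppargc1a, 0.94) and 6 lower (median -0.45), beside 19.9% and 17.1% of all genes, with Cebpb at -1.32, Cebpa at -1.01 and Creb3l3 at -0.97. Of the 3 genes of the pyrimidine pathway, the other user of carbamoyl phosphate, 0 were called at day 6 (median -0.12) and 1 was lower in hbHep than in FAH liver (Dhodh, -0.48).

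In the comparisons not detailed here, hbHep against YAP1on tumors (28.8% of all genes higher, 26.3% lower) gave 11 higher and 0 lower of the 12 partners, 7 and 3 of the 14 ornithine and arginine enzymes, and 6 and 2 of the 11 glutamine and ammonium genes. It gave 9 and 1 of the 10 breakdown genes, 7 and 1 of the 12 factors, and 2 and 0 of the 3 pyrimidine genes. Against day 6 tumors (24.1% and 21.7% of all genes), hbHep had 9 and 0, 8 and 0, 4 and 2, 4 and 0, 5 and 1, and 2 and 0 in that order. Against FAH liver, day 6 tumors (31.6% and 31% of all genes) had 1 and 9, 3 and 8, 7 and 2, 0 and 8, 2 and 7, and 0 and 3. For YAP1on tumors against FAH liver (34.4% and 33.5%), the counts were 0 and 10, 5 and 7, 4 and 4, 0 and 10, 2 and 8, and 0 and 2. Counts such as 4 and 2 or 4 and 4 of 11, and 5 higher of 14, are near the shares over all genes.

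The genes most like each of the 10 were found by the root mean square difference of centred log2 abundance over the 14 samples. Arg1 and Gls2 were each closest to Amdhd1, an enzyme of histidine breakdown, at 0.27 and 0.34. The median over all genes was 1.62 and 1.75, but the closest of so many genes lies below the median by construction. Arg1 was next closest to Sult2a7 (0.28) and Ftcd (0.35), and Gls2 to Hsd3b2 (0.38) and Hal (0.4). Among the 10, Arg1 and Gls2 were each other's nearest (0.46), and so were Cps1 and Otc (0.54). Cps1 was closest to Odf3b (0.24), Otc to Ugt3a1 (0.27), Ass1 to Fetub (0.19), Asl to Acy1 (0.24), Nags to Man1a (0.12), Slc25a15 to Dmgdh (0.13) and Slc25a13 to Stard7 (0.06). Glud1 was no closer to another of the 10 (Slc25a13, 0.66) than the median over all genes (0.57).

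In the ATAC libraries open chromatin was counted at the matched start sites, and none was matched for Cps1, Asl, Arg1 and Gls2. All 7 annotated start sites had at least 1 base under an interval within 1 kb in each of the 5 libraries, where the share of all 21262 start sites was 65.8 to 67.6%. For the 4 start regions shown above, the 2001-base window held 1061 covered bases at day 14, 998 at day 33, 973 at day 64 and 508 in liver for Otc, and 1407, 1343, 1145 and 1337 for Ass1. For Nags it held 1304, 1465, 1362 and 1092, and for Glud1 1332, 1354, 1548 and 1310. The YAP1on list is of another kind, with intervals of at most 162 bases and a median width of 21 against 61 to 71 in the other 4 lists, so its covered lengths are not compared. With 1 library per condition there is no replicate check and no test.

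The cover of the gene bodies differed widely among libraries. In liver, intervals covered 80.6% of Ass1 (chr2:31470270-31520670), 66.9% of Arg1 (chr10:24915207-24927470), 60.2% of Asl (chr5:130011258-130024381) and 56.1% of Cps1 (chr1:67122426-67231267), where the median of 21883 protein-coding genes was 1.7%. At day 14 the same bodies were covered to 84.4, 50.6, 68.2 and 75.9%, and at day 33 to 81.3, 36.7, 37.5 and 53.8%. At day 64 they were covered to 11.8, 24.3, 17 and 4.29%. Cps1 and Ass1 thus stayed near or above liver at days 14 and 33 and were far below it at day 64, while Arg1 was below liver at all 3 times. Many genes were covered more at day 33 than in liver: the 777 genes with at least 30% in liver had medians of 58.2 and 44.1%. Against all 21883 genes, the day 33 minus liver difference of Cps1 (-2.23 percentage points) already lay at percentile 1.31. That of Ass1 (0.659) lay at percentile 53.4.

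Genes were ranked by the day 64 minus liver difference, from the lowest of all 21883 upward. A gene cannot drop by more points than its cover in liver, whose median was 1.7%. Only genes widely covered in liver could therefore reach the lowest ranks. Ass1 held rank 1 at -68.8 percentage points, Cps1 rank 3 (-51.8), Asl rank 4 (-43.2) and Arg1 rank 5 (-42.6). The drop was not confined to these 4: rank 2 was held by Sds (-64.1), rank 7 by Slc7a2 (-39.7), rank 10 by Got1 (-29.2) and rank 11 by Slc38a4 (-29), all genes of the lists above, and ranks 6, 8 and 9 by the liver genes G6pc (-42.4), Hamp (-35.2) and Uox (-29.3). These 7 genes are named here after their values were seen. The cause of the drop was not tested. With 1 library per condition, an effect of the library cannot be told apart from a change in the tissue. The day 64 list as a whole covered 55.8 Mb and the liver list 36.7 Mb. Among the 777 genes covered to at least 30% in liver, the median at day 64 was 57.3%, against 44.1% in liver. The hepatocyte marker Alb was covered to 75.6% at day 64 and 67.6% in liver, and 5 of the 6 hepatocyte markers were covered more at day 64, the exception being Apoa1 (77.1 and 91.2%). Most of the 21883 genes were also covered more at day 64: a difference of 0.0145 percentage points, that of Otc, lay at percentile 36.1.

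The other genes took different courses. Gls2 (chr10:128194635-128210004) was covered to 41.2, 17.2 and 17.5% at days 14, 33 and 64 and 38.4% in liver, so that it had dropped by day 33. Slc25a15 (chr8:22375550-22398621) was covered to 38.1, 53.3 and 29.9%, with 49.6% in liver. Nags (chr11:102145513-102149528) stood at 68.4, 53.5 and 57.8% against 34.8% in liver, and Glud1 (chr14:34310727-34345033) at 30.3, 54.1 and 44.7% against 27.7%, both above liver at day 64. Slc25a13 (chr6:6041218-6217304) was covered to 22.4, 13.4 and 11.1%, with 6.59% in liver. Otc (chrX:10252230-10321024) was covered to 8.42, 3.27 and 2.34%, with 2.33% in liver. These shares stood at percentiles 70.1, 55.3, 49.1 and 56.5 of all protein-coding genes. Its RNA averaged 30290 in FAH liver.

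**Figure D4:**
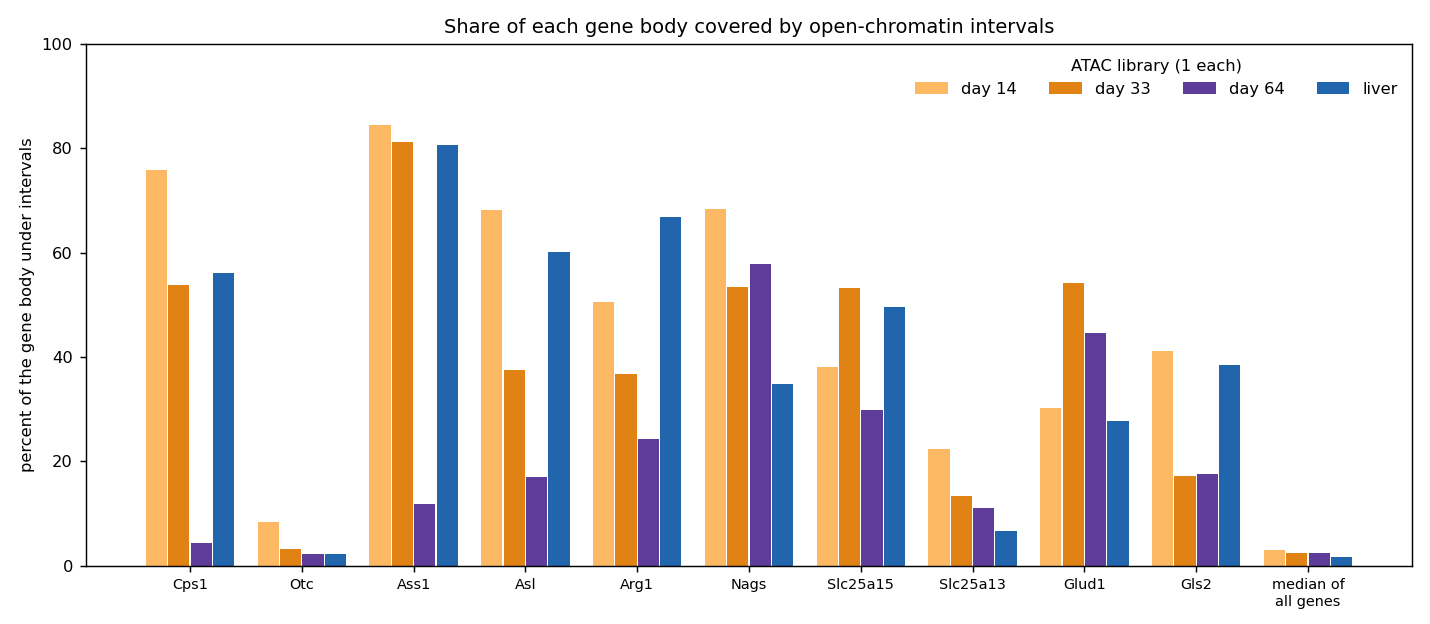
Percent of each gene body under ATAC intervals at days 14, 33 and 64 without YAP1 and in liver (1 library each), with the median over all protein-coding genes at the right. The day 64 bars of Cps1 (4.29%), Ass1 (11.8%), Asl (17%) and Arg1 (24.3%) are far below the liver bars, and those of Nags and Glud1 are above them.

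Where the start site is known, the first 2 kb of the gene and the rest of the body were measured apart. In Ass1 the first 2 kb were covered to 82.7, 77.5 and 46.8% at days 14, 33 and 64 and 76.8% in liver, and the rest to 84.5, 81.4, 10.4 and 80.8%. At day 64 the share covered was thus higher near the Ass1 start, whose sequence is shown above, than in the rest of the body. In Slc25a15 the first 2 kb were covered to 75.5% at day 64 and 54% in liver, and the rest to 25.6 and 49.2%. In Nags the rest was covered to 45.4% at day 64 and 8.38% in liver.

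**Figure D5:**
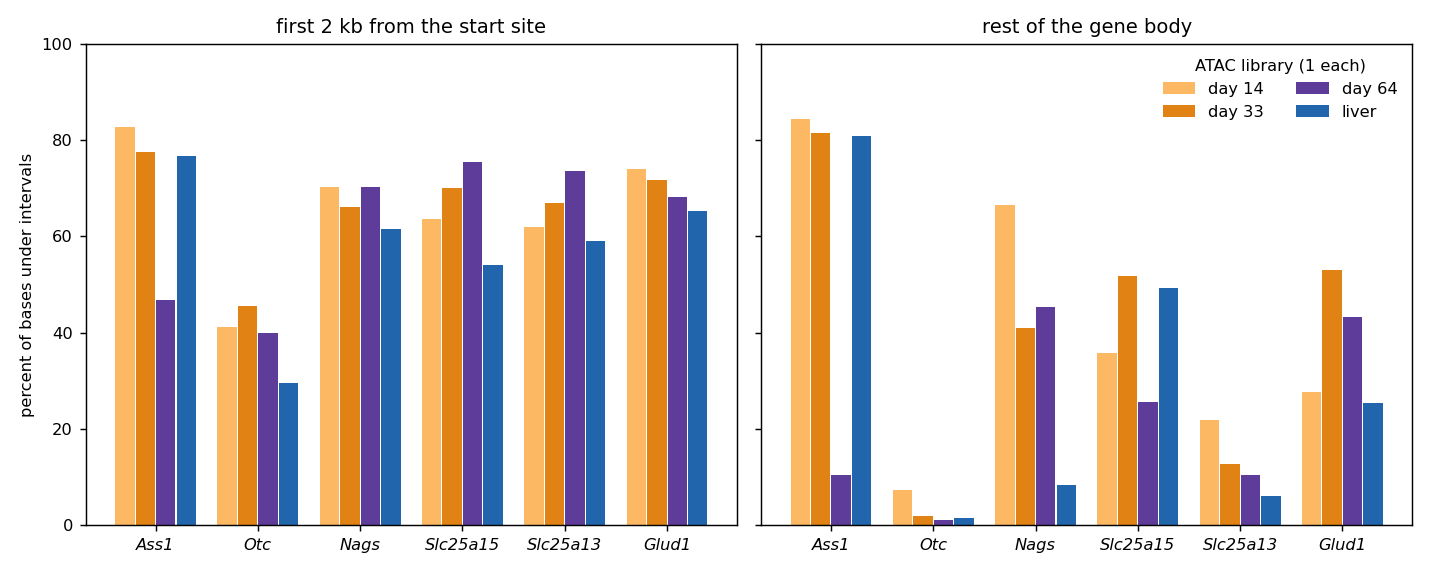
Percent of bases under ATAC intervals in the first 2 kb from the start site (left) and in the rest of the gene body (right) for the 6 genes with an annotated start, in 4 libraries. Ass1 at day 64 is at 46.8% near the start and 10.4% in the rest, while its other 3 libraries exceed 76% on both sides.

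RNA was not measured at days 14, 33 and 64, and the ATAC liver is WT and not FAH liver, so the readouts stand side by side only. Ass1 and Cps1, the genes with the widest drop of body cover at day 64, had hbHep RNA at 53.8 and 19.4% of the FAH liver mean at days 114 to 121. Arg1, Asl and Gls2, below liver in body cover at days 33 and 64, had 8.87, 30.9 and 13%. Slc25a15, below liver in cover at days 14 and 64, had 88.7%. Nags, Glud1 and Slc25a13, covered more than in liver at day 64, had 79.3, 68.8 and 75.4%. Otc, with nearly equal cover at day 64 and in liver, had 12.3%.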

How the data were processed

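RNA of 17 libraries (14 samples, 4 groups taken from the labels) was analysed. The authors deposited 1 signal value per gene and library, read here from the table's name as scaled reads per base. Per the submitters' processing notes it was made on GRCm38.p6 by kallisto 0.45.0, with sleuth. Such values carry no read counts, so the absolute depth is unknown and no counting interval is given. Relative depth was estimated from low values, with the first library of hbHep mouse 1 set to 1. It was 1.88 to 2.73 in YAP1on tumors and 1.46 to 2.04 in day 6 tumors. In hbHep libraries it was 0.966 to 1.4, and in FAH livers 0.901 to 0.993, so it differed by group. Reads that fit several transcripts are divided among them by kallisto's estimate. The ATAC intervals, and the score in the YAP1on list (used here only to rank that list), were deposited by the authors on mm10. The submitters' processing notes name cutadapt, BWA, Picard and SAMtools; which program drew the intervals is not given in the sources used here.

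Technical libraries of an hbHep mouse were averaged. Libraries were then brought to 1 scale with median-of-ratios factors between 0.9632 and 1.1. Genes with an abundance of at least 10 in at least 3 samples (17953) were tested on log2(abundance + 1) with limma 3.58.1 (lmFit, eBayes with a trend; R 4.3.3). A single model held the 4 groups and no covariate, so it pools their spread. A fold change on this scale understates changes of low genes. The script was tested on simulated data. ATAC intervals were merged in each library and their overlap with RefSeq gene bodies and start windows was counted (minimum 1 base). The genes, the lists and the cell markers were chosen with earlier results of these data known. Named genes were the 10 and, for each list, up to 3 genes a direction with the largest called change at day 6 and in hbHep against FAH liver. Nothing in the labels says that the tumors of a group came from separate mice, so p-values between tumor groups measure the spread between these samples. Because the spread is pooled, p-values of the other comparisons, hbHep against FAH liver included, also rest in part on spread among tumors of 1 mouse.

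Alternatives were other pseudocounts, filters and scalings, the replicate block, fits on 2 groups, each technical library alone, no trend, leaving out each sample, and, for ATAC, other windows, overlaps and interval sets.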

Additional observations from a re-analysis of the deposited data

How the results depend on the processing

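Of the 45 called differences of the 10 genes over 6 comparisons, 35 kept their direction and their call under every alternative run and 10 lost the call under at least 1. Quantile normalization, which forces 1 distribution on all samples, moved most: it called 5 genes lower in hbHep than in FAH liver in place of 8, and it gave Cps1 -0.09 in hbHep against YAP1on tumors, Slc25a15 -0.11 and Gls2 -0.02 in hbHep against day 6 tumors, Slc25a15 0.33 in hbHep and 0.43 in day 6 tumors against FAH liver, and Glud1 0.49 in day 6 and 0.9 in YAP1on tumors against FAH liver. All of these reversed the sign; the cause was not tested. The values as deposited gave Ass1 0.05 in hbHep against day 6 tumors. The first hbHep libraries gave Arg1 -0.37 against YAP1on tumors and Gls2 -0.73 against day 6 tumors, and the second gave Ass1 0.15 and Arg1 0.29 against day 6 tumors. With only hbHep and FAH liver in the model, 4305 genes in place of 6628 were called, and Slc25a13 and Glud1 lost their calls. That fit had fewer samples, 16498 genes tested and no spread from the tumors, and the parts of these were not told apart.

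Leaving out 1 sample at a time, the difference of Glud1 at day 6 ranged from -0.05 to 0.04, and in hbHep against day 6 tumors that of Ass1 from -0.16 to 0.04, Arg1 from -0.5 to 0.07 and Gls2 from -0.53 to 0.69, each crossing 0. None of these was called with all samples. The shared replicate numbers did not pair the samples (correlations of deviations from -0.23 to 0.187; the samples that correlated best with their own number were 2 of 3 in hbHep against FAH liver and 0 in each other comparison). With the replicate block, the calls at day 6 went from 4235 to 3663 over all genes and from 8 to 7 among the 10 (Arg1 lost, adjusted p = 0.0738), and in hbHep against FAH liver from 6628 to 5985 and from 8 to 7. In the ATAC lists the 7 start sites stayed covered under every window, overlap and interval set tried. With only the wider intervals of each list (those above its median width), the Cps1 body was covered to 1.24% at day 64 and 48% in liver, and Ass1 to 6.59 and 76.2%.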
